A study of Mus musculus with 12 samples.

Results

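The genes described here are 33 genes of myeloid cells, most of them expressed by macrophages and some by all leukocytes, measured in the cervix of pregnant mice. They were found by their gene symbol in the platform annotation of the array, and each is represented by its brightest probe set, by the mean of all 12 arrays. All 33 were on the array, out of 18194 genes represented in the same way. The study measured RNA from the cervix of CD1 mice, which are outbred, on Affymetrix whole-genome mouse arrays at day 15 of gestation. In the treated group (6 arrays), dams had received medroxyprogesterone acetate (MPA), a synthetic progestin that also binds the glucocorticoid receptor, at 1 mg per dam under the skin for 48 h. In the vehicle group (6 arrays), dams had received the same volume of ethanol for the same time. Nothing in the labels ties an array to a separate dam. P-values here therefore measure only how far these samples spread, and that spread may be technical.

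Macrophages are phagocytes that depend on the colony stimulating factor 1 receptor for survival and on the transcription factor PU.1 for their identity. They carry Fc receptors and lectins whose signals run through small adaptor proteins with an immunoreceptor tyrosine-based activation motif (ITAM), kill microbes with lysosomal enzymes and an NADPH oxidase, and move by remodelling actin. In the cervix they are among the leukocytes that increase towards birth, when the collagen-rich tissue softens, and progesterone action is known to hold back that ripening.

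The samples carried markers of epithelium, fibroblasts, smooth muscle and skeletal muscle. All 8 epithelial, all 9 fibroblast and all 6 smooth muscle marker genes passed the filter on dim genes, which asked for a log2 intensity above 4 on at least 6 arrays and kept 8795 genes. The median over all probe sets, on the linear scale and not as log2, lay between 6.62 and 6.86 per array. The number of arrays limits the precision. The first principal component of the 8795 genes held 48.5% of the variance, with MPA 2 at -57.26 and MPA 5 at 41.48 at its ends and the vehicle arrays between -32.04 and 20.50. MPA 2 also had the lowest summed fibroblast marker intensity (11049) and the lowest smooth muscle sum (7814), and MPA 5 the highest of both (32821 and 40263). The vehicle arrays had fibroblast sums of 14855 to 27271 and smooth muscle sums of 15067 to 31932. The epithelial sum ran the other way, lowest in MPA 5 (14323) and highest in MPA 2 (34930), with 23385 to 34789 in vehicle. Of 8 skeletal muscle markers, 6 passed. The sum of this list was highest in vehicle 1 (1697), against 345 to 970 in the other vehicle arrays and 323 to 1047 in MPA. The log2 ratio of 3 prime to 5 prime control probe sets, a sign of RNA quality, was 3.43 in MPA 6, between 2.27 and 2.67 in the other MPA arrays and between 2.37 and 2.82 in the vehicle arrays. These values are given because the same arrays stand at the ends of several genes below, and their part in the differences was not tested.

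Start regions of 5 of the genes are shown first, because PU.1, encoded by Spi1, acts through a purine-rich site close to the start of many myeloid genes. The windows run from 250 bases before to 50 bases after the annotated gene start (RefSeq, GRCm38.p6), written 5′ to 3′ on the strand of the gene. Capitals mark GAGGAA on either strand, the core of the PU.1 site, and the longer GAGGAAGT where it is present. The windows belong to the 3 genes with the smallest p that have an entry, Aif1 (chr17:35176003-35176302, minus strand), Mpeg1 (chr19:12460520-12460819, plus strand) and Ms4a7 (chr19:11336097-11336396, minus strand). Ms4a7 has another start (chr19:11334646-11334945), not printed, whose window holds no match. They also belong to the 2 genes with the longer motif that passed the filter, Ctss (chr3:95526536-95526835, plus strand) and Cd53 (chr3:106790100-106790399, minus strand).
Aif1: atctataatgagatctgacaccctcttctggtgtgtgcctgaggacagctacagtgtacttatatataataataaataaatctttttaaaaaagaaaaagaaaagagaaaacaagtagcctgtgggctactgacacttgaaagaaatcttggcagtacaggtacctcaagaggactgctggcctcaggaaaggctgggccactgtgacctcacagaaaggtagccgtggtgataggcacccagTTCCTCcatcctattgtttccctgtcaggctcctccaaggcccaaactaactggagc
Mpeg1: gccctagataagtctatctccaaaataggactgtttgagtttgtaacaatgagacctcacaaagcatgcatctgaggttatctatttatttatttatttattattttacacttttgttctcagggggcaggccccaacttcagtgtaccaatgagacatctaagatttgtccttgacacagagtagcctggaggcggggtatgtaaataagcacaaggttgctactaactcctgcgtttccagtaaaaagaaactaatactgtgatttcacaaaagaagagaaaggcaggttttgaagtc
Ms4a7: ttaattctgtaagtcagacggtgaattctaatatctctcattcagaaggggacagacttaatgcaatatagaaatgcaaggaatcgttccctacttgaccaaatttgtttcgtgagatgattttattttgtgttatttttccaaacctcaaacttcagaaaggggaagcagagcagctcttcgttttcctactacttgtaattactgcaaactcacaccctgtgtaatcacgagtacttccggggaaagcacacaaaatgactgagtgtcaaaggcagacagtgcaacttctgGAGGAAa
Ctss: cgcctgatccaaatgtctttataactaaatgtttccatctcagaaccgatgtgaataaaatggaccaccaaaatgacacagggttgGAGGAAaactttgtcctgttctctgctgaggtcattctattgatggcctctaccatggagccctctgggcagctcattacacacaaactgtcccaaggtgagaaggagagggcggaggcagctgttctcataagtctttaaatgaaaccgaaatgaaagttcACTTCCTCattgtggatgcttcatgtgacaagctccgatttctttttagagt
Cd53: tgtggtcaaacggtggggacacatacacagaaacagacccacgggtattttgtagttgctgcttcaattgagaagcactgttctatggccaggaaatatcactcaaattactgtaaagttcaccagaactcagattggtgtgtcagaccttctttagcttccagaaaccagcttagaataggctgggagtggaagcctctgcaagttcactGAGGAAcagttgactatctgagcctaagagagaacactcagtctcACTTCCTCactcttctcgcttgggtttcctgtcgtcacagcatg
Of the 33 genes, 24 had a window. GAGGAA was found in at least 1 window of 16 of these 24 genes (66.7%) and of 31.3% of all 27025 genes with a window. The longer GAGGAAGT, which contains GAGGAA, was found for 2 of the 24 (8.33%) and for 3.69% of all genes. Mpeg1 held neither. A match is a run of letters in this window and not a site shown to be bound.

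Most of the myeloid genes had a higher mean intensity after MPA, but none passed the test across all genes. The largest difference was that of Aif1, an actin-binding protein of macrophages, which was 1.91-fold higher with no overlap between the groups. Tyrobp, the ITAM adaptor DAP12, was 1.62-fold higher, Mpeg1, the pore-forming perforin-2 of macrophages, 1.74-fold, and Ms4a7, a tetraspanning membrane protein of macrophages, 1.46-fold. At the other end, Coro1a, an actin regulator of all leukocytes, had nearly equal means (1.01-fold). By limma with Benjamini-Hochberg adjustment over the 8795 genes, 0 of the 13 genes that passed the filter had an adjusted p under 0.05 in either direction, where 0.0114% of all genes tested were higher and 0.0% lower.

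At an unadjusted p under 0.05 there were 4 of the 13, all higher in MPA, beside 3.21% of all genes tested that were higher and 1.8% that were lower. All 13 had a positive difference, as had 56.3% of the genes tested. The 13 had a median log2 difference of 0.40 and the genes tested one of 0.02. A gene that enters through the group in which it is high is bound to differ, so these figures describe the 13 and not the 33. Among the 13, Cybb was above 4 on 5 MPA and 5 vehicle arrays, Coro1a on 5 and 6, and the others on all 12 arrays. Without any filter, 30 of the 33 were higher and 3 lower, beside 62.3% of all 18194 genes that were higher. Their median was 0.31, against 0.0026 over all genes. An unadjusted p under 0.05 was found for 5, all higher in MPA, beside 2.18% of all genes that were higher and 1.26% that were lower. In whole tissue, more cells of a type and more RNA per cell cannot be told apart.

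**Figure D1:**
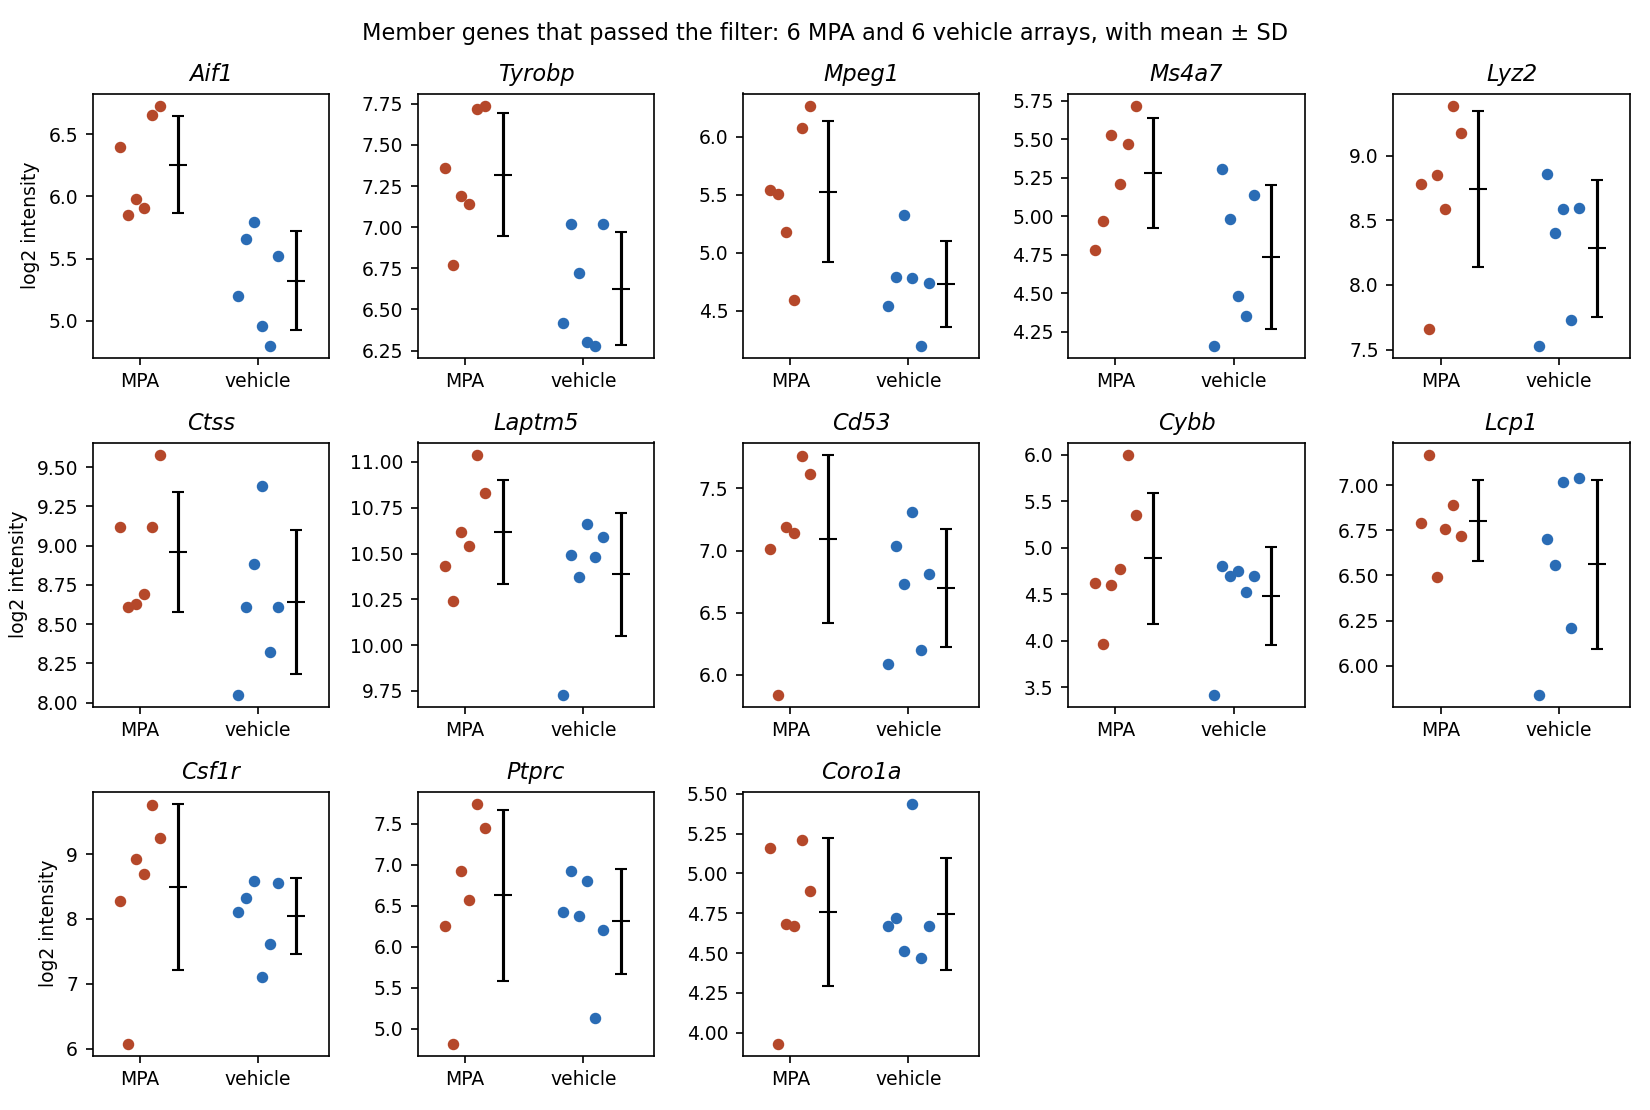
Log2 intensity (vertical axes, each with its own range) of the 13 genes that passed the filter, in 6 MPA and 6 vehicle arrays, with the mean and SD beside the points of each group. Aif1 shows no overlap, with the lowest MPA array at 5.85 and the highest vehicle array at 5.79, while the points of the other genes overlap.

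Among the lineage regulators and the growth factor receptor, only Csf1r passed the filter. Csf1r, the receptor for colony stimulating factor 1, had log2 intensities from 6.08 through a median of 8.81 to 9.75 in MPA, against 7.11 through 8.21 to 8.59 in vehicle. In MPA, 4 of 6 arrays exceeded every vehicle array, and MPA 2 lay below all of them. The difference was 0.44 (SE 0.52, limma adjusted p = 1.00), 0.93 without MPA 2, 0.19 without MPA 5, 0.29 without MPA 6 and 0.26 without vehicle 4. A further Csf1r probe set above a log2 value of 4 on 9 arrays had 0.53. Adjusted for the first principal component, the Csf1r difference was 0.12. Of 7 further myeloid growth factors and receptors on the array, Csf1 alone passed. Csf1, the ligand, ranged from 4.71 to 10.30 in MPA, against 5.22 to 9.57 in vehicle, with a difference of 0.72 (SE 0.97, limma adjusted p = 1.00). It was lowest in MPA 2 and, among the vehicle arrays, in vehicle 5.

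Spi1 did not exceed 2.45 in any MPA array or 2.34 in any vehicle array, which is the dim end of the scale. Irf8, a transcription factor of monocytes, dendritic cells and B cells, reached 3.60 in MPA and 4.00 in vehicle, with its highest value in vehicle 4. A low value of a probe set does not show that the gene is silent, since probe sets differ in sensitivity.

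Of the ITAM adaptors and the receptors that use them, Tyrobp alone passed. Tyrobp ran from 6.77 through 7.28 to 7.74 in MPA, against 6.28 through 6.57 to 7.02 in vehicle. The difference was 0.69 (SE 0.19, limma adjusted p = 0.863), and 5 of 6 MPA arrays lay above every vehicle array. MPA 2 was the array that did not. Fcer1g, the adaptor of the activating Fc receptors, exceeded a log2 value of 4 in MPA 5 (4.34) and MPA 6 (4.68) and in no vehicle array, where its highest value was 3.52. Fcgr3, an activating low-affinity Fc receptor, had its highest values in MPA 5 (5.52) and MPA 6 (4.60), against 4.25 at most in vehicle. Fcgr2b, the inhibitory Fc receptor, was above 4 on 4 of 6 MPA arrays and on 0 of 6 vehicle arrays, with a mean of 4.11 ± 1.18 in MPA and 3.56 ± 0.09 in vehicle (SD, n = 6 each). Its lowest value of all, 2.43, was again in MPA 2. Fcgr1, the high-affinity receptor, reached 3.27 in MPA and 2.33 in vehicle. Fcgr1, Fcer1g and Fcgr2b (5.64) had their highest values in MPA 6, the array with the largest ratio of 3 prime to 5 prime controls.

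Clec7a, the beta-glucan receptor Dectin-1, stayed at or below 2.55 on all arrays, and Trem2, a lipid receptor that pairs with Tyrobp, varied by only 0.04 over the 12 arrays. The Fcgr2b probe set carries the suffix that marks probes shared by several transcripts, and 4 other Fcgr2b probe sets stayed at or below a log2 value of 4, so its signal cannot be tied to that gene alone.

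All 4 lysosomal and secreted proteins passed. Mpeg1 ranged from 4.59 through 5.52 to 6.27 in MPA, against 4.20 through 4.76 to 5.33 in vehicle, with a difference of 0.80 (SE 0.27, limma adjusted p = 0.897). In MPA, 5 arrays were above the vehicle mean, and MPA 4 was not. Lyz2, the lysozyme of macrophages and neutrophils, ran from 7.66 through 8.81 to 9.39 in MPA, against 7.53 through 8.50 to 8.86 in vehicle (difference 0.46, SE 0.30, limma adjusted p = 1.00). MPA 2 was the low array of its group and vehicle 1 and vehicle 5 those of theirs.

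Ctss, the lysosomal protease cathepsin S that trims the class II invariant chain, ran from 8.61 through 8.90 to 9.58 in MPA, against 8.05 through 8.61 to 9.38 in vehicle. The groups overlapped widely, the top vehicle value belonging to vehicle 4, and the difference was 0.31 (SE 0.23, limma adjusted p = 1.00). It was 0.19 without MPA 6 and 0.20 without vehicle 1. Laptm5, a lysosomal membrane protein of haematopoietic cells, ran from 10.24 through 10.58 to 11.04 in MPA, against 9.73 through 10.48 to 10.66 in vehicle, a difference of 0.23 (SE 0.17, limma adjusted p = 1.00). Vehicle 1 stood apart at 9.73, and without it the difference was 0.10. It was 0.15 without MPA 5. The Laptm5 probe set bears the suffix for probes that may match other transcripts, and its 4 other probe sets stayed at or below 4. The mean of all Laptm5 probe sets gave a difference of 0.073.

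All 3 actin proteins passed. Aif1 ran from 5.85 through 6.19 to 6.73 in MPA, against 4.80 through 5.36 to 5.79 in vehicle. Every MPA value exceeded every vehicle value, as was so for 0.227% of the genes tested. The difference was 0.93 (SE 0.21, 95% interval 0.47 to 1.39), and its limma adjusted p was 0.592, the p ranking 10 among all genes. Its single probe set carries the suffix for probes shared by several transcripts. With each array left out in turn it ran from 0.83 to 1.03, and it was 0.71 without MPA 5 and MPA 6. Lcp1, the actin bundler L-plastin, ran from 6.49 through 6.77 to 7.17 in MPA, against 5.84 through 6.63 to 7.04 in vehicle, and differed by 0.24 (SE 0.20, limma adjusted p = 1.00). A further Lcp1 probe set that was above 4 on all 12 arrays gave 0.22. Without vehicle 1, which was lowest, the Lcp1 difference was 0.09.

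Coro1a ran from 3.93 through 4.79 to 5.21 in MPA, against 4.47 through 4.67 to 5.44 in vehicle. Its difference of 0.01 (SE 0.22, 95% interval -0.47 to 0.49, limma adjusted p = 1.00) turned negative under 14 of 26 alternatives, among them quantile normalization (-0.0033) and centring on the median (-0.011). The highest array was vehicle 4 and the lowest MPA 2. Further Coro1a probe sets had -0.069 (above 4 on 3 arrays) and -0.026 (above 4 on 0 arrays).

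Among the surface proteins, 3 of 10 genes passed. Ms4a7 ran from 4.78 through 5.34 to 5.72 in MPA, against 4.16 through 4.73 to 5.31 in vehicle, a difference of 0.54 (SE 0.22, limma adjusted p = 0.989). All 6 MPA arrays were above the vehicle mean, and 3 vehicle arrays were below every MPA array. Cd53, a tetraspanin of leukocytes, ran from 5.84 through 7.17 to 7.76 in MPA, against 6.09 through 6.77 to 7.31 in vehicle (difference 0.40, SE 0.31, limma adjusted p = 1.00). Ptprc, the leukocyte common antigen CD45, ran from 4.82 through 6.75 to 7.75 in MPA, against 5.13 through 6.41 to 6.93 in vehicle (difference 0.31, SE 0.45, limma adjusted p = 1.00). In both genes MPA 2 was the lowest of all arrays and MPA 5 the highest. Without MPA 2 the differences were 0.65 for Cd53 and 0.67 for Ptprc. Cd53 had 0.26 without MPA 5. Ptprc had 0.087 without MPA 5, 0.15 without MPA 6 and 0.075 without vehicle 5, the lowest vehicle array. A further Ptprc probe set, above 4 on 0 arrays, had -0.15, and the mean of the Ptprc probe sets gave 0.079.

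The other surface genes were dim. Ms4a6d, a relative of Ms4a7, had the largest difference of the genes that did not pass, with a mean of 3.67 ± 0.85 in MPA and 2.91 ± 0.20 in vehicle (SD, n = 6 each). MPA 6 gave its only value above 4, at 5.19, and 5 of 6 MPA arrays lay above all vehicle arrays. This probe set, too, may detect several transcripts. Adgre1, the adhesion receptor by which mouse macrophages are commonly identified, did not exceed 3.85 in MPA or 3.17 in vehicle. Itgam, the alpha chain CD11b of the complement receptor, did not exceed 2.38 in MPA or 2.71 in vehicle. Its partner chain Itgb2 reached 3.49 in MPA and 3.27 in vehicle. Cd52, a small glycoprotein of leukocytes, reached 3.58 in MPA 5 and 3.51 in vehicle 4. Cd84, a homophilic receptor of leukocytes, and Ptafr, the receptor for platelet-activating factor, varied by 0.15 and 0.10 over all arrays. The macrophage markers Adgre1, Cd68 and Fcgr1 thus stayed below a log2 value of 4 on every array. Other macrophage genes were bright, with vehicle means of 8.05 for Csf1r and 8.29 for Lyz2.

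The phagocyte oxidase was represented by Cybb, its catalytic subunit, which ran from 3.96 through 4.69 to 6.00 in MPA, against 3.42 through 4.70 to 4.80 in vehicle. MPA 5 and MPA 6 lay above all vehicle arrays, and vehicle 1 lay far below the other 5. The difference was 0.40 (SE 0.33, limma adjusted p = 1.00), 0.18 without MPA 5, 0.19 without vehicle 1 and 0.0052 without MPA 5 and MPA 6. The other subunits measured did not pass. Ncf1, the organizer subunit p47phox, reached 4.25 in MPA 6 and 3.85 in vehicle, and Ncf4, the subunit p40phox, varied by 0.15 over all arrays. Of the oxidase partners, 2 of 4 genes on the array passed. Cyba, the partner chain of Cybb, had -0.05 (SE 0.15) and the GTPase Rac1 0.03 (SE 0.09), both with a limma adjusted p of 1.00.

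No scavenger receptor passed. Cd68, a lysosomal sialomucin, had a mean of 3.57 ± 0.36 in MPA and 3.12 ± 0.18 in vehicle (SD, n = 6 each), with 4 of 6 MPA arrays above all vehicle arrays and a highest value of 3.98. It was the fifth gene with an unadjusted p under 0.05 when no filter was applied (limma adjusted p = 0.964). Msr1, the class A scavenger receptor, was at 3.40 in MPA 5 and at 2.55 or below elsewhere. Marco, a relative expressed by marginal zone and alveolar macrophages, varied by 0.16. In all, 20 of the 33 genes did not pass, and their median difference was 0.14.

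**Figure D2:**
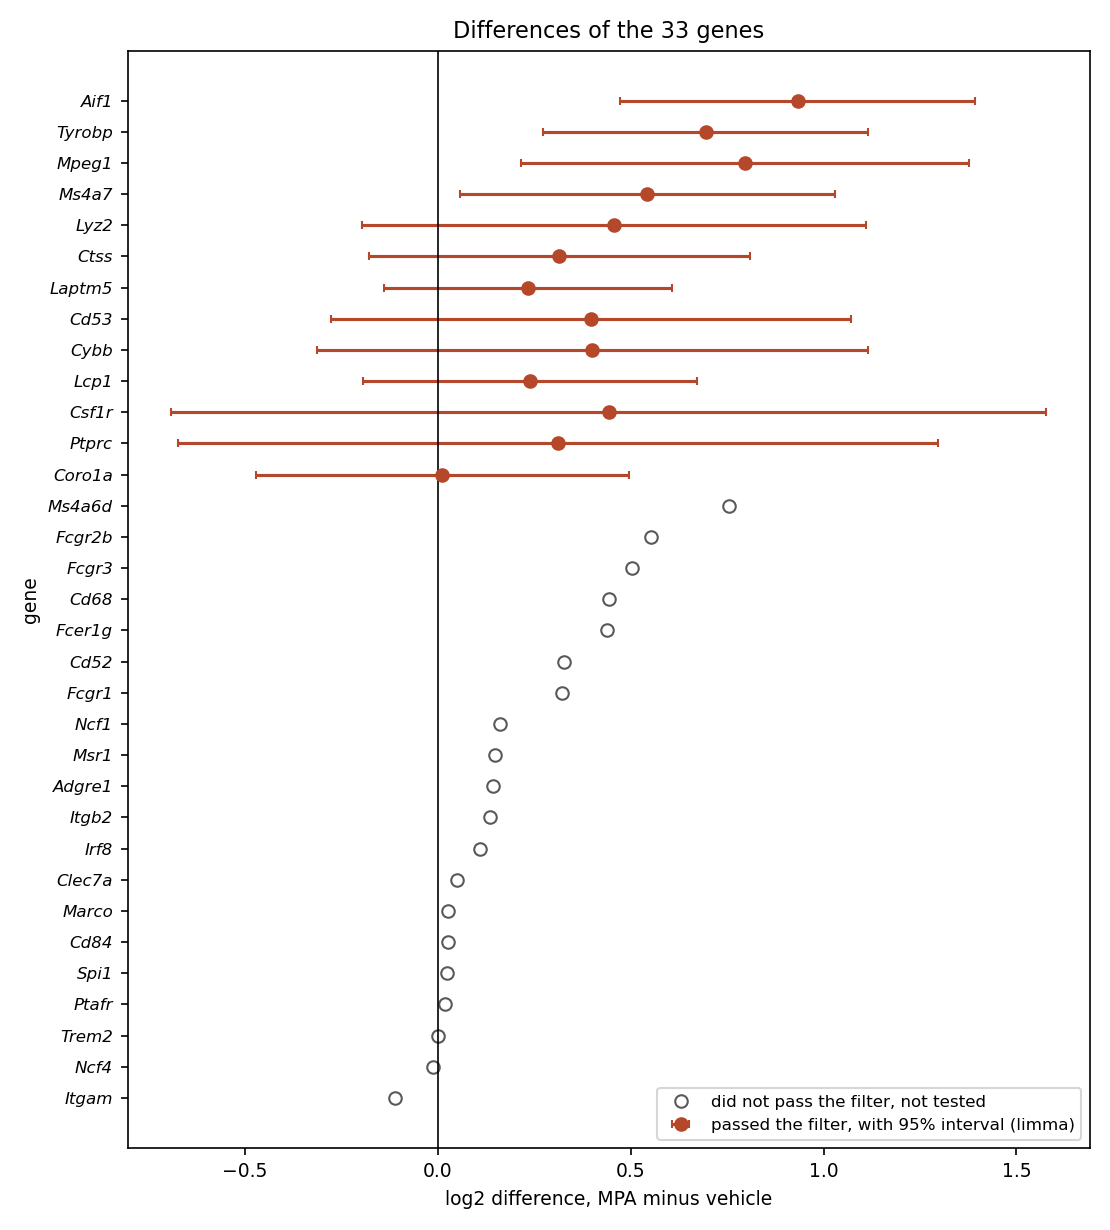
Log2 difference, MPA minus vehicle (horizontal axis), of the 33 genes. Filled points with 95% intervals are the 13 genes tested, ordered by p, and open points the 20 that did not pass the filter. The intervals of Aif1, Tyrobp, Mpeg1 and Ms4a7 lie above 0, unadjusted for the number of genes, and those of the other 9 include 0.

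Most of the genes were highest in the same pair of arrays. MPA 5 or MPA 6 was the highest array for 11 of the 13 genes that passed (6 and 5 genes), where MPA 5 was highest for 14.3% and MPA 6 for 18.3% of all genes tested. In 9 of the 13, these arrays were the highest pair, as they were for 6.54% of all genes tested. Both were singled out once their values were known. The exceptions were Lcp1, highest in MPA 2, Coro1a, highest in vehicle 4 (the highest array for 9.1% of all genes tested), and Ctss and Ms4a7, in which MPA 6 led without MPA 5 next. The lowest array was vehicle 1 for 6 genes (5.8% of all genes tested), MPA 2 for 4 (18.7%) and vehicle 5 for 3. The shares of all genes lowest in vehicle 5 or highest in MPA 2 were not computed. Relative to the vehicle mean, the average of the 13 was 1.02 in MPA 5, 0.90 in MPA 6, between 0.28 and 0.40 in MPA 1, MPA 3 and MPA 4, and -0.32 in MPA 2. In the vehicle arrays it ran from -0.42 in vehicle 1 to 0.28 in vehicle 2. The genes lowest in MPA 2 were Csf1r, Cd53, Ptprc and Coro1a. Aif1, Tyrobp, Mpeg1 and Ms4a7 were above their vehicle means in MPA 2. Without MPA 5 and MPA 6, the 13 had a median difference of 0.12, with 10 higher and 3 lower.

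**Figure D3:**
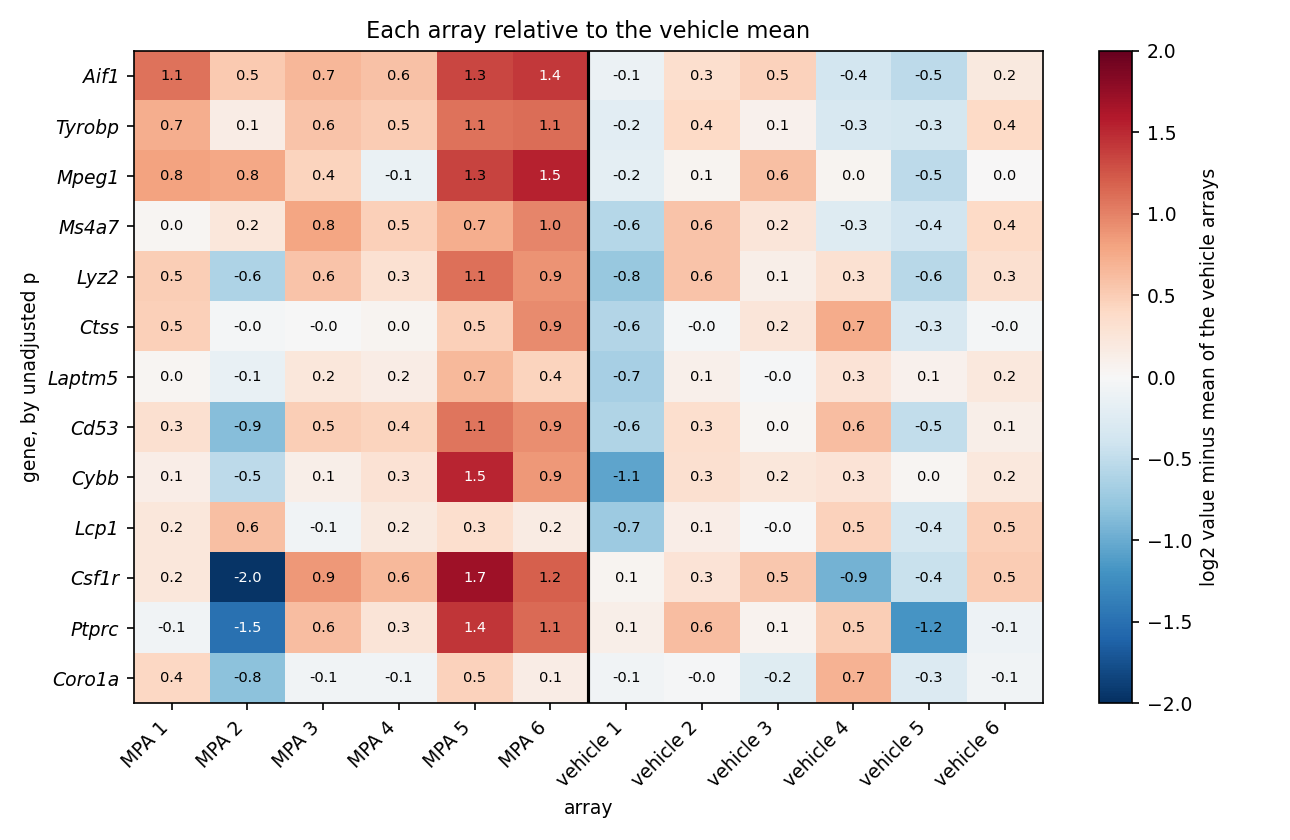
Log2 value of each gene (rows, ordered by unadjusted p) in each array (columns, MPA left of the line and vehicle right of it) minus the mean of the vehicle arrays. MPA 5 and MPA 6 are positive for all 13 genes, and MPA 2 is most negative for Csf1r and Ptprc.

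Grouped by how widely leukocytes express them, the genes gave the following values. The 6 macrophage and monocyte genes that passed (Aif1, Mpeg1, Csf1r, Lyz2, Ms4a7 and Ctss) had a median difference of 0.50, with a range of 0.31 to 0.93, and 3 had an unadjusted p under 0.05. For the 5 pan-leukocyte genes (Cd53, Laptm5, Ptprc, Coro1a and Lcp1) the median was 0.24, the range 0.01 to 0.40, and 0 had an unadjusted p under 0.05. The 2 other myeloid genes that passed, Tyrobp and Cybb, had a median of 0.55, and 1 had an unadjusted p under 0.05. Over all genes tested, 3.21% had an unadjusted p under 0.05 and were higher in MPA. The difference between these sets was not tested. In all 6 MPA arrays the macrophage mean exceeded the pan-leukocyte mean, each taken relative to vehicle, by 0.12 to 0.60. In the vehicle arrays the gap ran from -0.58 to 0.40. It was positive in vehicle 1 (0.03), vehicle 2 (0.06), vehicle 3 (0.40) and vehicle 6 (0.11) as well. Because each mean is taken relative to vehicle, a low value in 1 vehicle array raises the gaps of all others. Vehicle 4 set the lower end, with a macrophage mean of -0.08 and a pan-leukocyte mean of 0.51.

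Vehicle 4 also held the highest values of some B cell, dendritic cell and monocyte genes, named here after their values were seen. The B cell genes Ms4a1 (CD20) and Cd79a, part of the B cell receptor, were at 3.56 and 3.58 in vehicle 4, against at most 2.55 and 2.36 in the MPA arrays and 2.54 and 2.38 in the other vehicle arrays. Cd83, a marker of mature dendritic and B cells, was at 3.82 in vehicle 4, against 2.96 at most in MPA. The monocyte chemokine receptor Ccr2 was at 7.47 in vehicle 4 and at 7.30 in MPA 1, close behind. Other genes of these lists, also named after their values were seen, did not follow. The B cell gene Blk was highest in MPA 6 (3.31) and at 2.48 in vehicle 4. The dendritic cell gene Zbtb46 had its lowest vehicle value in vehicle 4 (3.15). So had the macrophage genes Mrc1 (6.20), C1qb (8.34), Cd163 (3.81) and Maf (8.11). No B cell, dendritic cell or T cell marker other than Jchain passed the filter. Of 7 T cell markers on the array, all 7 stayed at or below 4 on every array, as did all 7 dendritic cell markers and 5 of 6 B and plasma cell markers. Summed T cell marker intensity was 36.3 to 38.2 in MPA and 36.3 to 36.7 in vehicle. The dendritic sum was 38.0 to 45.3 in MPA and 39.6 to 47.7 in vehicle, the last in vehicle 4. For the B and plasma cell list, the sums were 43.3 to 234.6 in MPA and 35.2 to 71.8 in vehicle. Jchain, a plasma cell gene, made up most of the upper MPA value, and the 5 other genes summed to 26.6 to 31.1 in MPA and 26.4 to 43.6 in vehicle, highest in vehicle 4. The part of these cells in the values of the pan-leukocyte genes was not tested.

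**Figure D4:**
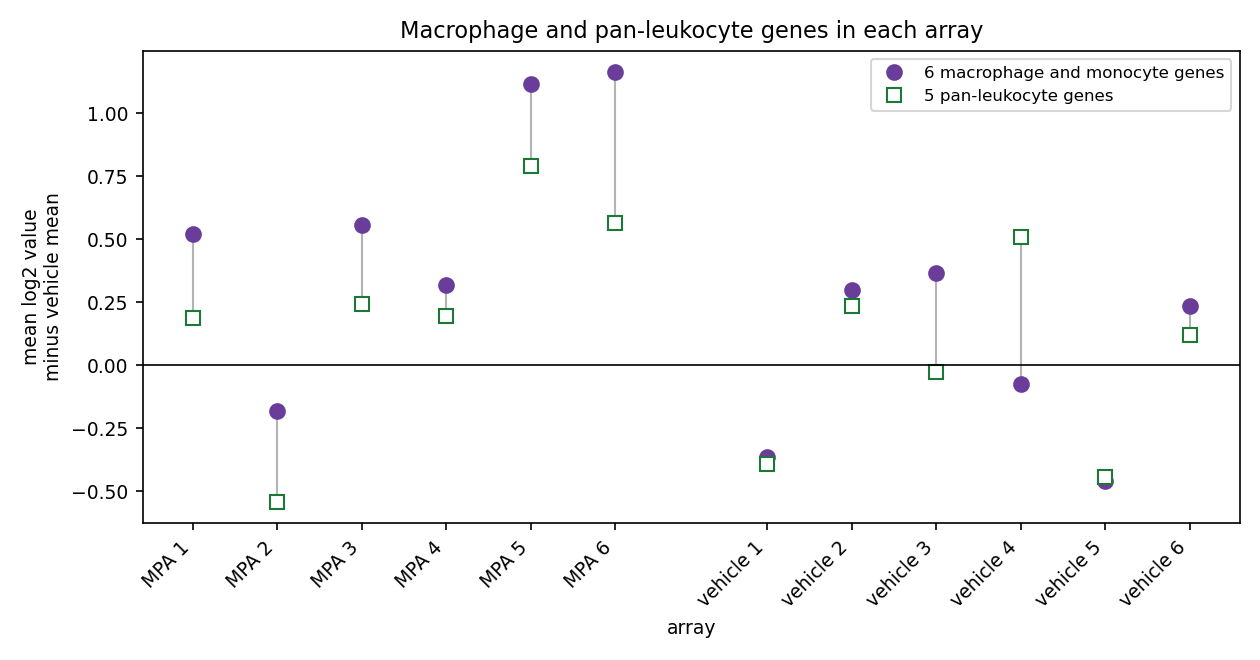
Mean log2 value relative to the vehicle mean (vertical axis) of the 6 macrophage and monocyte genes (filled circles) and the 5 pan-leukocyte genes (open squares) that passed the filter, in each of the 12 arrays. The circle lies above the square in all 6 MPA arrays and in vehicle 1, vehicle 2, vehicle 3 and vehicle 6. Vehicle 4 shows the largest gap in the other direction.

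Neutrophils share several of these genes. Of 8 neutrophil markers on the array, 7 stayed at or below 4 on all arrays, among them S100a8, S100a9, Cxcr2 and Ngp. The exception was Ltf, lactoferrin, which glandular epithelium also makes, with 12.74 ± 0.29 in MPA and 12.83 ± 0.23 in vehicle (SD, n = 6 each). The summed linear intensity of the list was 4878 to 8358 in MPA and 5732 to 8352 in vehicle. Nearly all of it came from Ltf, so the sum says little about the other 7 markers. All 4 eosinophil markers on the array stayed at or below 4.

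Other macrophage and monocyte genes, a list of 21 of which 19 were on the array, gave 9 that passed. All 9 had higher means in MPA, as had 56.3% of the genes tested, and 0 had an adjusted p under 0.05. By limma 2 had an unadjusted p under 0.05, both higher, beside 3.21% of all genes tested that were higher. The median difference was 0.58. These figures describe the 9 that passed. Of the genes that did not pass, Gpnmb (-0.12) and C1qa (-0.0011) were lower in MPA, while Ly86 (0.53) and Alox5ap (0.64) were higher. Cd14, the lipopolysaccharide co-receptor, had 0.58 (SE 0.20, limma adjusted p = 0.897), and Lgmn, the lysosomal protease legumain, 0.61 (SE 0.25, limma adjusted p = 0.982). Cd14 was highest in MPA 2, unlike most of the macrophage genes. Mrc1, the mannose receptor, named after its values were seen, was at 4.65 in MPA 2 and at 7.63 to 8.61 in the other MPA arrays, against 6.20 to 8.02 in vehicle. Among the kinases and other proteins that act after ITAM adaptors, 2 of 14 on the array passed. Plcg2, the phospholipase, had -0.08 (SE 0.16) and Sirpa, an inhibitory receptor, -0.03 (SE 0.12), both with a limma adjusted p of 1.00. Of 10 integrin partners and actin proteins of phagocytes, 5 passed, 4 higher and 1 lower in MPA. Cnn2, a calponin that smooth muscle also makes, had 0.24 (SE 0.27, limma adjusted p = 1.00).

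The arrays were washed on 3 fluidics stations, of which station 2 held MPA 1, MPA 2, vehicle 5 and vehicle 6, while the others held arrays of 1 group each. Within station 2 the 13 genes had a median difference of 0.05, with 7 higher and 6 lower, and 0 had an adjusted p under 0.05 by limma. Mpeg1 differed there by 1.05, Aif1 by 0.96, Tyrobp by 0.42, Ctss by 0.40 and Lcp1 by 0.35. Ms4a7 had 0.13 and Lyz2 0.05. The other 6 turned negative, with Csf1r at -0.91, Cybb at -0.32, Laptm5 at -0.20, Ptprc at -0.13, Cd53 at -0.080 and Coro1a at -0.019. This comparison rests on 2 arrays against 2, among them MPA 2. For Aif1 the groups do not overlap over all arrays, so its sign within the station could not differ. With the station as a block the differences are the same ones, and 0 of the 13 had an adjusted p under 0.05.

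**Figure D5:**
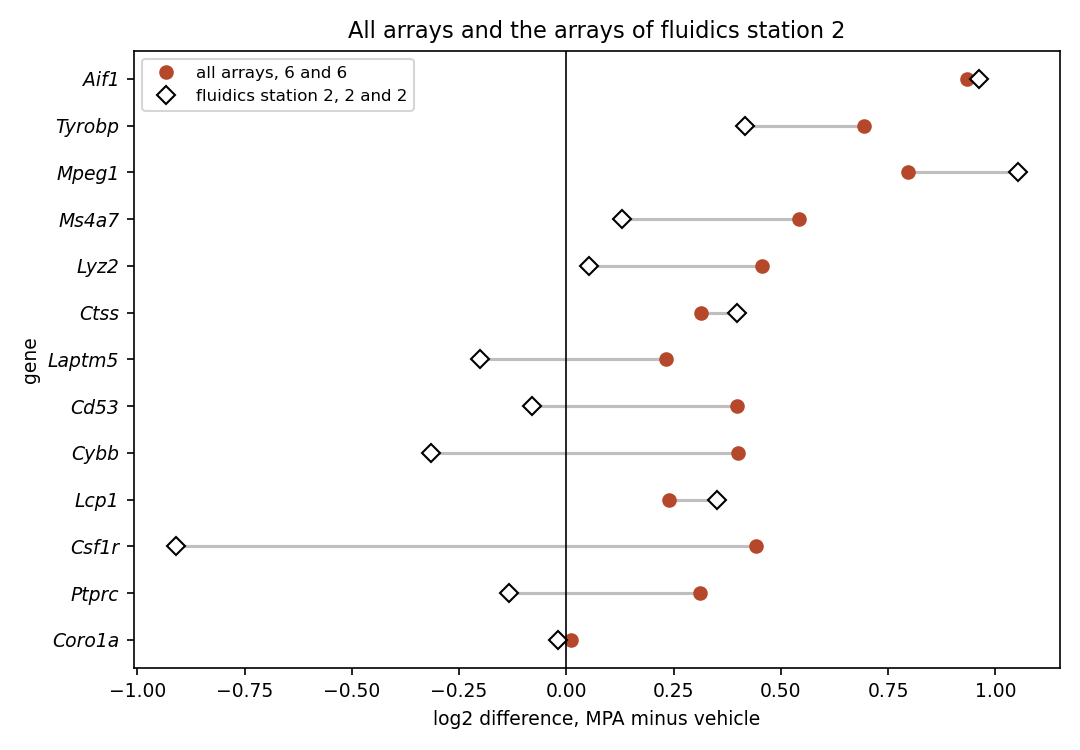
Log2 difference, MPA minus vehicle (horizontal axis), of the 13 genes over all arrays (filled circles) and over the arrays of fluidics station 2 alone (open diamonds). Aif1 keeps its place (0.93 and 0.96), whereas Csf1r has 0.44 over all arrays and -0.91 within the station.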

How the data were processed

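Cervical RNA of 12 samples was measured on Affymetrix arrays, after amplification of 100 ng of total RNA per the labels' protocols. The authors deposited 1 linear intensity per probe set and array (45101 probe sets, 4.39 to 77974), computed with GCRMA per the submitters' processing notes (version not given in the sources used here). By default GCRMA subtracts a background modelled on probe sequence, applies quantile normalization and summarises the probes, which compresses dim probe sets. Instrument records gave the fluidics station of each array.

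Groups came from the sample titles. Log2 was taken with no pseudocount. Of the probe sets, 34958 had 1 gene symbol in the platform annotation, 932 had several and 9211 were not listed; 34754 matched RefSeq by Entrez number. The probe set with the highest mean represented a gene (18194 genes), and 8795 of them, brighter than log2 4 on 6 or more arrays, were tested. The groups were compared with limma 3.58.1 (lmFit, eBayes; R 4.3.3) without covariates, with Benjamini-Hochberg adjustment over all genes tested, and adjusted p-values under 0.05 were called. The test was checked on data simulated with independent noise for each gene. Variation that many genes share across arrays, as in the first principal component, was not simulated. Each difference is a log2 value, MPA minus vehicle, with its moderated SE. The 33 genes, their grouping and the other lists were chosen with earlier results of these data known. By rule all 33 genes are named, and from each other list the called genes or, with none, the 2 with the smallest p; 1 gene of the integrin and actin list, and the genes so chosen from the NK cell, endothelial, skeletal muscle, fibroblast, smooth muscle and epithelial lists, are not reported here. Alternatives changed the filter, the choice of probe set, the normalization, the variance model, the pseudocount or the weights of arrays, added the station, the control ratio, the first principal component or the replicate number, or left out an array. Leaving out MPA 2 with MPA 5, or MPA 5 with MPA 6, was added after seeing the data.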

Additional observations from a re-analysis of the deposited data

Results flagged for a closer look

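Of 32 sets of 6 arrays examined (the 13 tested genes and 3 averages of them, in each group), 3 held an array far from the others of its group by Dixon's criterion, and chance flags about 1 in 20. Laptm5 was at a log2 value of 9.73 in vehicle 1 and at 10.37 to 10.66 in the other vehicle arrays. Cybb was at 3.42 in the same array and at 4.52 to 4.80 in the others. Coro1a was at 5.44 in vehicle 4 and at 4.47 to 4.72 in the other vehicle arrays.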

How the results depend on the processing

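None of the 13 genes had an adjusted p under 0.05 under any alternative in which it was tested, which was 28 alternatives for 10 of them, 27 for Ms4a7 and 26 for Cybb and Coro1a. The number of all genes past the threshold, 1 over all arrays, was 0 with no filter, with each probe set on its own, within station 2, with the control ratio or the first principal component as a covariate, with the replicate block, and without MPA 2 and MPA 5 or MPA 5 and MPA 6. It ran from 0 to 1 with each array left out. The number of genes higher in MPA, 13 of 13, was 30 of 33 with no filter and 7 of 13 within station 2 or with the station as a block, and 12 to 13 with each array left out. The median difference of 0.40 ran from 0.26 without MPA 5 to 0.65 without MPA 2 when single arrays were left out. It was 0.12 without MPA 5 and MPA 6, and 0.053 within station 2 or with the station as a block. With the station as a block, as within station 2, Csf1r turned to -0.91, Cybb to -0.32, Laptm5 to -0.20, Ptprc to -0.13, Cd53 to -0.080 and Coro1a to -0.019. Without MPA 5 and MPA 6, Csf1r turned to -0.059, Ptprc to -0.17 and Coro1a to -0.14. Coro1a further turned to -0.0033 with quantile normalization, -0.011 with centred arrays, -0.028 with the control ratio and -0.046 with the first principal component. With each array left out it ran from -0.079 to 0.18. The cause was not tested. Titles number both groups 1 to 6. Same-numbered arrays deviated together with r between -0.60 and 0.05 over the genes tested, and no MPA array matched its own number best. This gave no sign that the numbers pair the samples, but a pairing with a small effect would not show in it. With the replicate block, 0 of the 13 passed. Each number holds 1 array of each group, so the block cannot change a difference. The 13 positive signs and the median of 0.40 were therefore fixed in advance. Depth is not known for arrays, and the 20 genes that did not pass are limited by signal near background.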

Other observations

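Genes of other blood and immune cells gave a few values beyond those above. Jchain, the joining chain of secreted IgA and IgM made by plasma cells, was the B and plasma cell marker that passed, with 6.20 ± 1.44 in MPA and 4.23 ± 0.68 in vehicle (SD, n = 6 each), a log2 difference of 1.97 (SE 0.59, limma adjusted p = 0.863). Pf4, platelet factor 4, which macrophages can also make, had 7.65 ± 0.28 in MPA and 6.98 ± 0.19 in vehicle (SD, n = 6 each; difference 0.68, SE 0.14, limma adjusted p = 0.592). It was the platelet or erythroid marker, of 7 on the array, that passed. The mast cell proteases Mcpt4 and Cma1 had differences of 0.57 (SE 0.55) and 0.56 (SE 0.57), both with a limma adjusted p of 1.00 and both lowest in MPA 2 and highest in MPA 5. Of the tissue and NK cell markers that passed, 0 had a limma adjusted p under 0.05. In MPA, 9 of 9 fibroblast markers were higher (median difference 0.16), 6 of 6 smooth muscle markers were higher (0.063), and 7 of 8 epithelial markers were lower (-0.18). Over all genes tested, 56.3% were higher in MPA. Of the 6 skeletal muscle markers that passed, 4 were lower and 2 higher in MPA (median -0.42). The NK cell and endothelial lists had 1 gene each that passed, with differences of 0.013 and 0.026.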
